A study of Mus musculus with 141 samples.

Results

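The ATP-binding cassette (ABC) transporter genes were taken as every gene whose symbol starts with Abc, a letter from a to g and a digit, with 2 of the 50 matching symbols left out, which gave 48 of the 24423 genes in the deposited tables. Of these, 15 belong to subfamily A, 9 to B, 10 to C, 4 to D, 1 to E, 3 to F and 6 to G. RNA of liver, lung and kidney had been sequenced from 1 male mouse of each of 47 Collaborative Cross (CC) strains, which gave 1 library per tissue and mouse. CC strains are recombinant inbred lines bred from 8 founder strains. The mice were 8 to 12 weeks old, ate the NTP 2000 wafer diet and had all been placed in clean-air chambers for 6 hours a day on weekdays, so no untreated or treated arm exists and the groups compared are tissues. With 1 mouse per strain, a difference between strains and a difference between single mice cannot be told apart, and in whole tissue fewer cells of a type and less RNA per cell cannot be told apart.

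ABC proteins bind and hydrolyse ATP, and most of them move substrates across a membrane, either as full transporters or as half-transporters that work in pairs. Those of subfamilies A and G handle mainly lipids and sterols, those of B and C export drugs, conjugated metabolites, bile constituents and peptides or serve mitochondria, those of D sit in peroxisomes and lysosomes, and those of E and F lack membrane spans and act in translation. In liver they form bile at the canalicular membrane, in kidney they secrete organic anions and urate, and in lung they serve lipid turnover in epithelium and macrophages.

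The total of expected counts per library lay between 1738046 and 42158454 for the livers, with 10423382 as the median. Lungs lay between 2829104 and 17585682 (9338124 as the median) and kidneys between 3046695 and 15028553 (8245850). The precursor of ribosomal RNA, Rn45s, accounted at the median for 34.9% of a liver library, 18% of a lung library and 25.4% of a kidney library, with 71.7% reached in the lung of CC015. Because TPM, a level per transcript length scaled to the same total in every library, is a share of that library, TPM values fall where Rn45s is high, and 22 of the 33 ABC genes with a median of at least 1 TPM in liver had their lowest TPM in the liver of CC033, where Rn45s took 69%. Comparisons therefore used counts scaled by TMM, the trimmed mean of M values. At the median, livers had a TMM factor of 0.643, lungs one of 1.94 and kidneys one of 1.32. The defining markers were highest in the tissue each label names. Summed TPM of the hepatocyte list had a median of 73667 in liver against 147 in lung and 3507 in kidney, that of the alveolar and airway list 64916 in lung against 51.3 and 40.6, and that of the tubule list 90955 in kidney against 61.2 in liver and at most 699 in any lung. Of cell types that whole tissue can also hold, cardiac muscle markers summed to between 95.7 and 3216 TPM in lung, macrophage markers to between 1987 and 13188 in lung, and adipocyte markers to between 0.69 and 148 in kidney. Median sums in liver, lung and kidney were 12.4, 533 and 66.6 TPM for smooth muscle, 53.1, 867 and 81.4 for endothelium, and 71.0, 2.35 and 65.5 for pancreas, and 4 of the 5 erythroid markers, all globin genes, had a median of 0 in each tissue. The highest sum of the pancreas list among livers was 1885 TPM.

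At the median, the ABC genes together made up 0.320% of a liver library, 0.255% of a lung library and 0.329% of a kidney library. A median of at least 1 TPM was reached by 33 of the 48 genes in liver, by 34 in lung and by 32 in kidney, by 27 in all 3 tissues, by 7 in 2 tissues and by 4 in 1 tissue. In liver the highest medians were those of Abcd3 at 355 TPM, Abcc2 at 230, Abcb4 at 154, Abca6 at 148, Abca1 at 98.8 and Abcg2 at 91.7. In kidney Abcg2 led at 503 TPM, followed by Abcd3 at 351, Abcc2 at 186, Abca13 at 120, Abce1 at 88.8 and Abcf1 at 63.4. In lung the order was flatter, with Abcd3 at 137 TPM, Abca8a at 117, Abca1 at 86.2, Abce1 at 79.6, Abcg1 at 74.9 and Abcc5 at 73.3. Neighbours in each order had overlapping ranges over the 47 mice, for example 56.1 to 470 TPM for Abcc2 and 29.2 to 299 TPM for Abcb4 in liver, so the order of close medians was not resolved. The peroxisomal half-transporter gene Abcd3 was the 1 gene among the first 2 in every tissue.

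**Figure D1:**
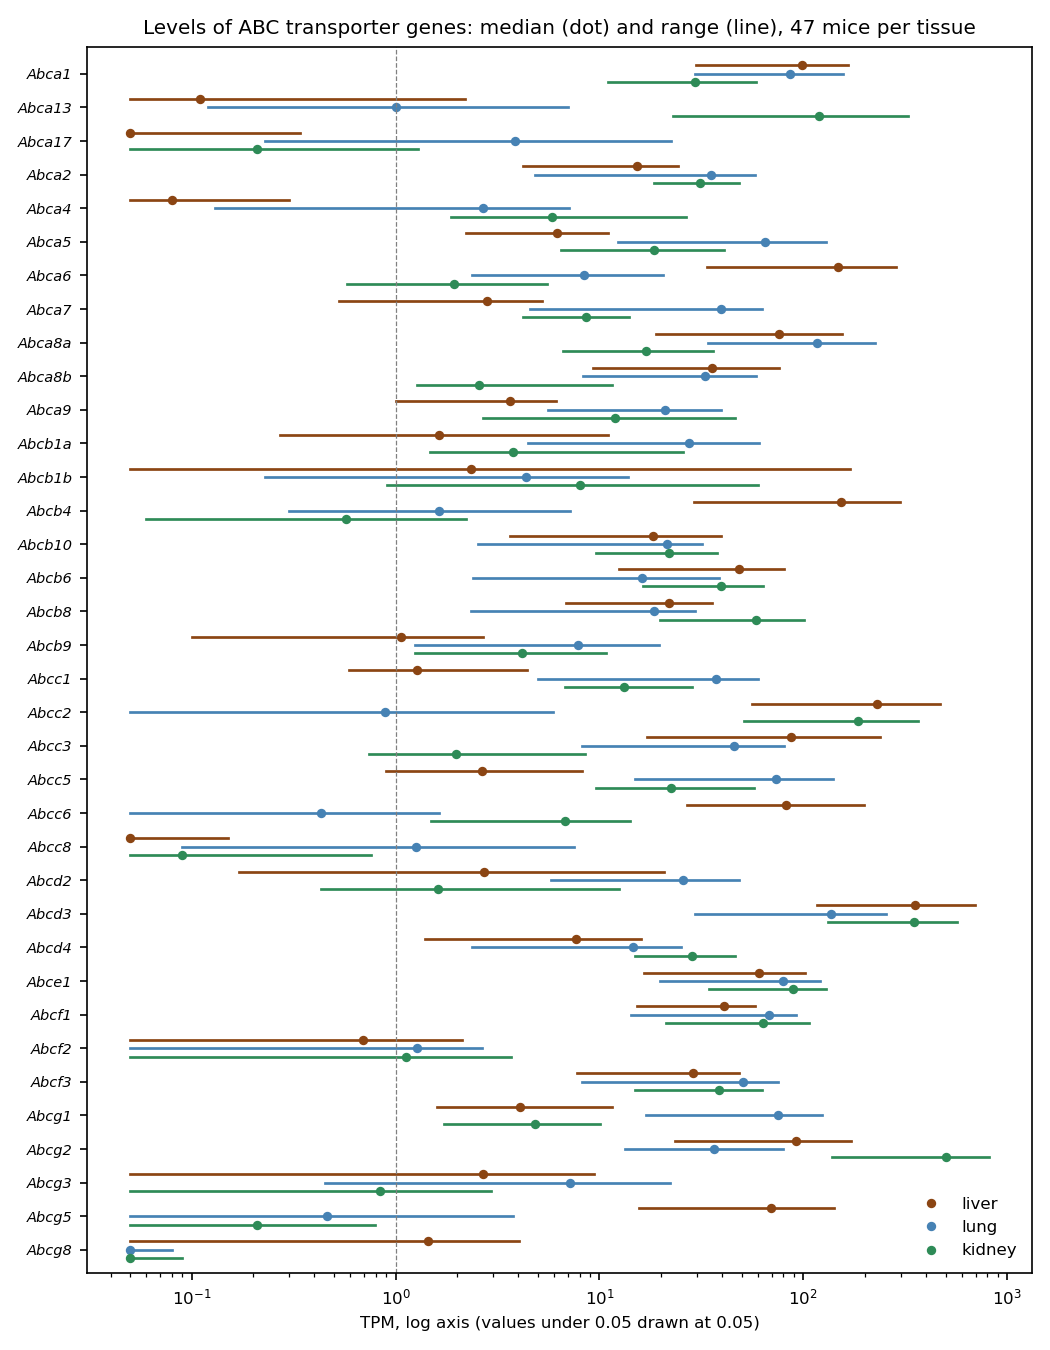
The level of 36 ABC genes with a median of at least 1 TPM in a tissue, in TPM on a log axis, with a dot for the median and a line for the range of 47 mice in liver (brown), lung (blue) and kidney (green). The dashed line marks 1 TPM, and kidney Abcg2 at a median of 503 TPM lies farthest right.

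Another 10 genes stayed under a median of 1 TPM in every tissue, namely Abca12, Abca14, Abca15, Abca16, Abcb5, Abcc4, Abcc9, Abcc10, Abcc12 and Abcg4. Abcc9, which codes for a regulatory subunit of potassium channels in muscle and vessels, was listed at 0 in every library, and Abcc4, an exporter of cyclic nucleotides and urate, had a median of 0 in each tissue. Both have more than 1 transcript named in the files, as have Abca6, Abca16, Abcc5, Abcc10, Abcf2 and Abcg8, and only uniquely aligned reads had been kept. Over all genes, 36.1% of the 6112 with more than 1 transcript and 61.4% of the 18311 with 1 transcript reached a median of 1 TPM in a tissue, and among ABC genes 4 of 8 and 34 of 40 did. The part of the counting in the levels of those 8 genes was not tested, and a 0 for Abcc9 or Abcc4 is not read as absence. Abca12, a lipid transporter of the skin barrier, had a median of 0.24 TPM in lung but reached 19.0 TPM in CC039.

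The first question was how the genes differed between tissues, which the strain design answers within each mouse. A model of limma-voom with tissue and mouse as terms was fitted over 12127 genes with CPM (counts scaled to the same library size) above 1 in at least 30% of libraries, 36 ABC genes among them, and a gene was called at a Benjamini-Hochberg adjusted p (q) of at most 0.1 with at least a 2-fold difference. Against lung, 17 ABC genes were higher in liver (23.9% of all genes tested were) and 12 were higher in lung (31.0%). Against kidney, 14 were higher in liver (15.6%) and 7 were higher in kidney (20.8%). Between lung and kidney, 15 were higher in lung (25.5%) and 11 were higher in kidney (20.6%). The median absolute log2 fold change of the 36 genes was 1.80 between liver and lung, 1.25 between liver and kidney and 1.59 between lung and kidney, beside 1.17, 0.65 and 0.88 over all genes tested.

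Higher in liver than in both other tissues were 11 ABC genes (9.87% of all genes), higher in lung than in both 7 (19.5%) and higher in kidney than in both 3 (7.60%). The liver genes were Abca1, Abca6, Abca8a, Abca8b, Abcb4, Abcb6, Abcc2, Abcc3, Abcc6, Abcd3 and Abcg5. The lung genes were Abca5, Abca7, Abca17, Abcb1a, Abcc5, Abcd2 and Abcg1, and the kidney genes were Abca4, Abca13 and Abcg2. Directions depend on the scale, since scaling to total counts lowered the median log2 fold change of all genes by 1.37 for liver over lung and by 0.95 for liver over kidney and raised that of lung over kidney by 0.42. DESeq2 size factors moved these medians by -0.24, -0.10 and 0.14. On total counts 8 ABC genes were higher in liver and 15 in lung (9.78% and 61.6% of all genes), 9 were higher in liver and 15 in kidney (8.09% and 47.8%), and 16 were higher in lung and 11 in kidney (33.4% and 15.1%). The share of calls higher in liver thus went from 58.6% to 34.8% against lung and from 66.7% to 37.5% against kidney. Under every scaling tried, Abca6, Abcb4, Abcc6 and Abcg5 remained above both other tissues in liver, all 7 genes did in lung, and Abca13 and Abcg2 did in kidney. Of the genes called, Abca8a, Abcb1b, Abcb10 and Abce1 were higher in liver than in lung by TMM and turned negative when scaled to total counts or read as TPM.

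**Figure D2:**
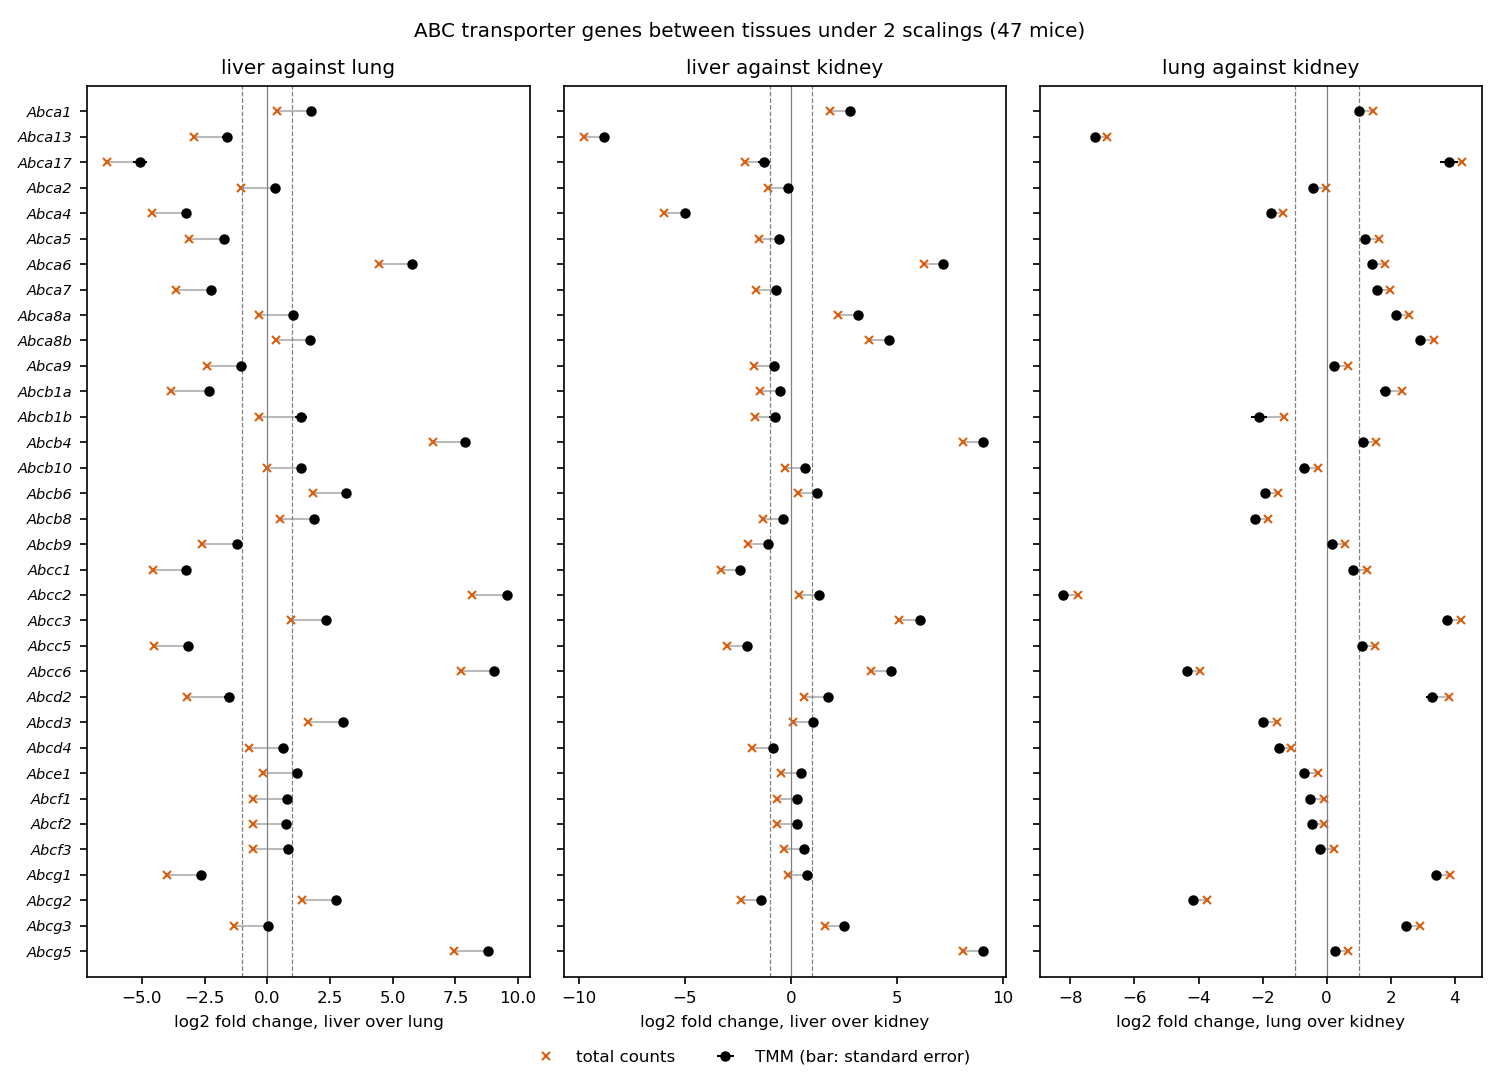
The log2 fold change of 34 ABC genes in liver over lung, liver over kidney and lung over kidney, scaled by TMM (black dots, with the standard error as a bar) and to total counts (orange crosses). Dashed lines mark a 2-fold difference. Total counts shift liver over lung to the left by about the 1.37 seen in all genes. Of the genes called by TMM this takes Abca8a, Abcb1b, Abcb10 and Abce1 across 0. Abca2, Abcd4, Abcf1, Abcf2, Abcf3 and Abcg3, not called by TMM in that pair, cross 0 as well.

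Among the 15 subfamily A genes, most of them transporters or handlers of lipids, 11 were tested, of which 4 were higher in liver and 6 in lung between these 2 tissues (23.9% and 31.0% of all genes tested). On total counts 1 of the 11, Abca6, was higher in liver and 7 were higher in lung (9.78% and 61.6% of all genes). Abca1, which loads cholesterol and phospholipid onto apolipoprotein A-I, had between 495 and 853 CPM in liver (median 648), between 120 and 322 in lung (median 189) and between 49.7 and 213 in kidney (median 97.1). The liver range did not overlap that of lung or kidney, and liver was above lung by 1.75 ± 0.05 on the log2 scale (standard error, q = 4.07e-53), higher in 47 of 47 mice, although on total counts the difference shrank to 0.39 and was no longer 2-fold. Abca6 had between 278 and 667 CPM in liver, between 3.98 and 17.6 in lung and between 1.08 and 7.12 in kidney, with medians of 509, 8.82 and 3.38. Lung and kidney overlapped, liver overlapped neither, and Abca6 was higher in liver than in kidney by 7.19 ± 0.06 on the log2 scale (q = 1.06e-102). Abca6 lies with Abca8b, Abca8a, Abca9 and Abca5 in a row on the minus strand of chromosome 11 between 109793504 and 110199030 (mm9), and these neighbours differed in where they were highest. Abca9 had a median of 13.6 CPM in liver, 29.2 in lung and 20.8 in kidney, and Abca5, which codes for a lysosomal protein, had 33.7, 106 and 48.2. Thus 3 genes of the row were highest in liver by TMM and Abca5 was highest in lung.

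The closest pair of the row, Abca8a and Abca8b, share 50-base stretches over 1.89% and 1.42% of their transcripts. Abca8a had between 92.4 and 485 CPM in liver (median 268), between 48.5 and 243 in lung (median 136) and between 13.6 and 71.6 in kidney (median 28.3). Liver and lung overlapped, and the difference of 1.01 ± 0.09 on the log2 scale (q = 5.14e-19) became -0.35 on total counts. Abca8b had medians of 137, 42.4 and 5.42 CPM in liver, lung and kidney, and its liver-over-kidney difference of 4.62 ± 0.07 exceeded the 3.18 ± 0.09 of Abca8a (log2 fold changes, q = 5.91e-83 and 6.88e-56). In lung against kidney Abca8b differed by 2.92 ± 0.07 and Abca8a by 2.17 ± 0.09 on the log2 scale, each higher in lung in 47 of 47 mice. Whether the 2 genes differ from each other in these contrasts was not tested.

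Abca13, a very large and little characterised member, had between 130 and 1240 CPM in kidney (median 691), between 0 and 40.8 in liver (median 1.05) and between 0.36 and 20.2 in lung (median 3.87). Kidney did not overlap the other tissues, and it exceeded liver by 8.83 (liver over kidney -8.83 ± 0.18 on the log2 scale, q = 2.10e-69) and lung by 7.22 (lung over kidney -7.22 ± 0.15, q = 1.62e-68), in 47 of 47 mice both times. Abca4, known as a flippase of photoreceptors, was far scarcer and had medians of 14.8 CPM in kidney, 3.98 in lung and 0.44 in liver. Liver was below kidney in 47 of 47 mice (log2 fold change -5.00 ± 0.13, q = 1.61e-59) and below lung in 47 of 47 (-3.26 ± 0.13, q = 3.85e-44). Both differences are set against liver libraries of which 32 of 47 held at most 3 counts. Abca17 had between 0.35 and 34.5 CPM in lung, with a median of 4.02, against a median of 0 in liver and 0.32 in kidney. Its fitted differences were -5.08 ± 0.28 for liver over lung and 3.82 ± 0.28 for lung over kidney (log2 scale, q = 7.22e-33 and 2.49e-24). They are set against few counts, since 46 of 47 liver libraries and 27 of 47 kidney libraries held at most 3. Abca7, which exports phospholipids, had medians of 10.9 CPM in liver, 55.2 in lung and 18.4 in kidney and was higher in lung than in liver in 47 of 47 mice, without overlap.

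The P-glycoproteins, broad drug exporters that mice carry as Abcb1a and Abcb1b, and Abcb4, the floppase that puts phosphatidylcholine into bile, lie in a row on chromosome 5 from 8660077 to 8959225 (mm9, plus strand). Abcb4 had between 227 and 735 CPM in liver (median 397), between 0.40 and 5.22 in lung (median 1.56) and between 0.08 and 6.29 in kidney (median 0.67). Liver stood clear of the other tissues, above lung by 7.90 ± 0.08 and above kidney by 9.04 ± 0.09 on the log2 scale (q = 5.09e-97 and 4.42e-97). Abcb1a had between 0.95 and 25.2 CPM in liver (median 4.60), between 10.7 and 50.1 in lung (median 28.9) and between 2.15 and 37.0 in kidney (median 7.13). Lung overlapped both other tissues, yet it was above liver in 47 of 47 mice (liver over lung -2.33 ± 0.15 on the log2 scale, q = 2.82e-27) and above kidney in 44 (lung over kidney 1.82 ± 0.15, q = 8.08e-21).

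Abcb1b had between 0 and 383 CPM in liver (median 6.72), between 0.39 and 10.9 in lung (median 4.66) and between 1.04 and 83.9 in kidney (median 12.4). All 3 tissues overlapped, and kidney exceeded lung in 41 of 47 mice (lung over kidney -2.11 ± 0.25 on the log2 scale, q = 8.32e-13), a difference of -1.33 on total counts and of -0.96, under 2-fold, on log2(TPM + 1). Its call in liver against lung (1.34 ± 0.25, q = 1.00e-06, 31 of 47 mice) rested on the liver of CC006, without which the difference was 0.95 and under 2-fold, and it had the opposite sign, -0.35, on total counts. The order of Abcb1a and Abcb1b over tissues thus differed, with Abcb1a highest in lung and Abcb1b highest in kidney by their medians. Stretches of 50 bases shared with a relative cover 17.0% of the Abcb1a transcript, 18.1% of Abcb1b and 3.43% of Abcb4, and a 50-base read from such a stretch fits more than 1 gene, while only uniquely aligned reads had been kept. The 250 bases before the start of each P-glycoprotein gene are shown because the paralogs differed in tissue order and, as given further on, in how they varied over mice. They were read from the mm9 genome (NCBIM37) up to the gene start in the GENCODE vM1 annotation, at chr5:8659827-8660076 for Abcb1a and chr5:8797897-8798146 for Abcb1b, both on the plus strand, with capitals for a CCAAT box (CCAAT) or a GC box (GGGCGG) on either strand. RefSeq has the same window for Abcb1b, but its Abcb1a window matches mm9 at 92986 bases upstream of this one. Which start is used in these tissues was not tested:
Abcb1a: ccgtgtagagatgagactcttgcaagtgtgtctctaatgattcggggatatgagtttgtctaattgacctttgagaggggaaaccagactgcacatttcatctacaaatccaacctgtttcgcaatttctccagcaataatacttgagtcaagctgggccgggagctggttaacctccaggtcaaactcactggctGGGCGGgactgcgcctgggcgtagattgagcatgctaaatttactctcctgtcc
Abcb1b: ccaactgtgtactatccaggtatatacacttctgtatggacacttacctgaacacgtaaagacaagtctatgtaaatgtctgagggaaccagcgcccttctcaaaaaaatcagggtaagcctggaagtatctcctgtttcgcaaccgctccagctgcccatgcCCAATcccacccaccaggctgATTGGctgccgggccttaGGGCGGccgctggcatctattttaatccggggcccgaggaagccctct
The Abcb1b window held 2 CCAAT boxes and 1 GC box, and the Abcb1a window held 1 GC box and no CCAAT box.

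The half-transporters of subfamily B in mitochondria and lysosomes were measured in all 3 tissues. Abcb8, of the inner mitochondrial membrane, had medians of 39.3 CPM in liver, 11.4 in lung and 52.1 in kidney. It was lower in lung than in kidney in 47 of 47 mice and without overlap, by a log2 fold change of -2.23 ± 0.05 (q = 9.41e-66). Abcb6, a porphyrin transporter, had medians of 93.3, 9.97 and 37.0 CPM, with lung again lowest and below kidney without overlap. Abcb10, which supports haem synthesis, had 48.7, 19.5 and 31.5 CPM, and its liver-over-lung difference of 1.34 ± 0.05 on the log2 scale (q = 9.04e-49) was -0.02 on total counts. The lysosomal peptide transporter Abcb9 went the other way, with medians of 2.13 CPM in liver, 5.10 in lung and 4.59 in kidney, and was lower in liver than in lung in 45 of 47 mice. Abcb6, Abcb8 and Abcb10 were thus called higher in liver than in lung by TMM, and Abcb9 higher in lung. On total counts Abcb6 and Abcb9 kept their calls, while the liver-over-lung difference of Abcb8 went from 1.84 to 0.50 on the log2 scale and was no longer 2-fold.

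Of the 8 genes of multidrug resistance proteins, exporters of drugs and of conjugated metabolites, 5 were tested. Abcc2, the canalicular exporter of conjugated bilirubin, had between 390 and 1173 CPM in liver (median 819), between 0 and 7.17 in lung (median 0.98) and between 147 and 496 in kidney (median 355). Lung lay far below both, by 9.57 ± 0.09 under liver and 8.24 under kidney (lung over kidney -8.24 ± 0.09, both on the log2 scale, q = 3.43e-100 and 2.68e-94). Liver and kidney overlapped, and although liver was higher in 47 of 47 mice by TMM (1.33 ± 0.06 on the log2 scale, q = 2.35e-36), the difference was 0.39 on total counts. Abcc6, whose loss causes ectopic calcification, had between 119 and 458 CPM in liver (median 266), between 0.05 and 1.59 in lung (median 0.43) and between 2.01 and 19.2 in kidney (median 12.0). The 3 ranges did not overlap, and the log2 fold changes were 9.04 ± 0.11 for liver over lung, 4.69 ± 0.08 for liver over kidney and -4.35 ± 0.11 for lung over kidney (q = 2.41e-89, 2.54e-74 and 3.15e-61).

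Abcc3, which exports conjugates across the basolateral membrane, had medians of 275 CPM in liver, 51.5 in lung and 3.46 in kidney. Its lung values, from 30.4 to 76.1 CPM, lay wholly above its kidney values, from 1.62 to 11.8, at a log2 fold change of 3.77 ± 0.11 (q = 5.71e-55). Liver was above lung by 2.34 ± 0.10 on the log2 scale (q = 2.73e-40) with overlap, and by 0.93 on total counts. Abcc1, an exporter of glutathione conjugates and leukotriene C4, had between 2.44 and 22.8 CPM in liver (median 4.64), between 25.9 and 67.9 in lung (median 46.0) and between 16.5 and 44.9 in kidney (median 25.3). Liver was lowest in every mouse, at log2 fold changes of -3.23 ± 0.06 against lung and -2.40 ± 0.06 against kidney (q = 1.57e-70 and 1.41e-58). Abcc5, an exporter of cyclic nucleotides, followed the same order with medians of 7.85, 68.2 and 30.7 CPM. Of the potassium channel regulators, Abcc8 passed no filter of the tissue test, with a median of 1.26 TPM in lung, 0.09 in kidney and 0 in liver, and Abcc9 was listed at 0.

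Subfamily D half-transporters serve peroxisomes and lysosomes. Abcd3, which brings branched-chain and bile acid precursors into peroxisomes, had medians of 765 CPM in liver, 96.5 in lung and 378 in kidney, and lung did not overlap either. Its lung-over-kidney difference was -1.98 ± 0.05 on the log2 scale (q = 2.38e-60), and the liver value exceeded the lung value in 47 of 47 mice (q = 5.82e-77). Abcd2, a carrier of very long-chain fatty acids found mainly in adipose tissue and brain, had between 1.16 and 58.2 CPM in liver (median 10.7), between 20.1 and 48.7 in lung (median 30.9) and between 0.59 and 17.2 in kidney (median 2.67). Lung lay wholly above kidney (3.30 ± 0.19 on the log2 scale, q = 4.41e-31), while liver covered almost the full span of both. The lysosomal cobalamin exporter Abcd4 had medians of 11.7 CPM in liver, 7.63 in lung and 22.3 in kidney, and was higher in kidney than in lung in 47 of 47 mice.

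The soluble genes of subfamilies E and F gave 1 call among their 12 contrasts. Over all genes tested, 23.9% were called higher in liver than in lung and 31.0% higher in lung. For liver and kidney these shares were 15.6% and 20.8%, and for lung and kidney 25.5% and 20.6%. Abce1, which splits ribosomes after termination, had medians of 143 CPM in liver, 63.9 in lung and 102 in kidney, and Abcf1 had 77.7, 44.5 and 61.8. The call was Abce1 in liver over lung at 1.19 ± 0.04 on the log2 scale (q = 3.59e-48), with the sign turned to -0.19 on total counts. Abcf3 differed by 0.81, 0.59 and -0.21 on the log2 scale in liver over lung, liver over kidney and lung over kidney, all under 2-fold. All 3 signs turned on total counts, to -0.56 (q = 0.00046), -0.34 (q = 0.0305) and 0.21 (q = 0.190). Abcf2 had at most a median of 1.28 TPM in any tissue.

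Subfamily G holds sterol and drug half-transporters, of which 4 of 6 genes were tested. Abcg2, an exporter of urate and many drugs, had between 95.8 and 514 CPM in kidney (median 407), between 68.6 and 227 in liver (median 128) and between 11.8 and 39.0 in lung (median 19.8). Kidney did not overlap lung (lung over kidney -4.17 ± 0.10 on the log2 scale, q = 1.02e-64) and overlapped liver, above which it lay in 46 of 47 mice (liver over kidney -1.42 ± 0.09, q = 8.07e-27). Abcg1, which passes cholesterol to lipoproteins and is abundant in macrophages, had medians of 96.7 CPM in lung, 14.7 in liver and 8.60 in kidney. Lung was higher than kidney in 47 of 47 mice and without overlap (3.42 ± 0.06 on the log2 scale, q = 1.72e-72). The rodent gene Abcg3 had medians of 4.90, 4.81 and 0.85 CPM in liver, lung and kidney, and liver over lung was 0.04 ± 0.13 on the log2 scale by TMM (q = 0.778). On total counts that difference was -1.31 (q = 5.44e-09), without Rn45s and Lars2 it was -1.15, and on log2(TPM + 1) it was -1.13, so Abcg3 was called higher in lung on those scales.

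Abcg5 and Abcg8, whose products pair to export sterols into bile, were above 1 TPM by their medians in liver alone. Abcg5 had between 35.8 and 175 CPM in liver (median 106), between 0 and 1.59 in lung (median 0.22) and between 0 and 0.84 in kidney (median 0.14). The log2 fold changes of 8.81 ± 0.10 for liver over lung and 9.07 ± 0.11 for liver over kidney (q = 8.41e-91 and 1.55e-89) are set against tissues in which 28 lung and 40 kidney libraries held at most 3 counts. Abcg8 passed 3 counts in no lung or kidney library and had a median of 16 counts in liver, where its median was 1.45 TPM against 69.4 TPM for Abcg5, and it is among the genes with more than 1 transcript. The genes overlap on opposite strands of chromosome 17 in the mm9 annotation (85057574 to 85082351 for Abcg5 and 85075642 to 85099673 for Abcg8), and no source used here states whether counting used the strand. The 109 bases between their facing starts in RefSeq are shown because the pair shares this stretch (Abcg8 has a further start upstream), at chr17:84683012-84683120 of GRCm38.p6 on the plus strand, with capitals for a TATA box (TATAAA, here on the minus strand):
Abcg5 and Abcg8: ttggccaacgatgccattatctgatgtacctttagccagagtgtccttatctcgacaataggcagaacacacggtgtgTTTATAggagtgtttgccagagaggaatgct

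**Figure D3:**
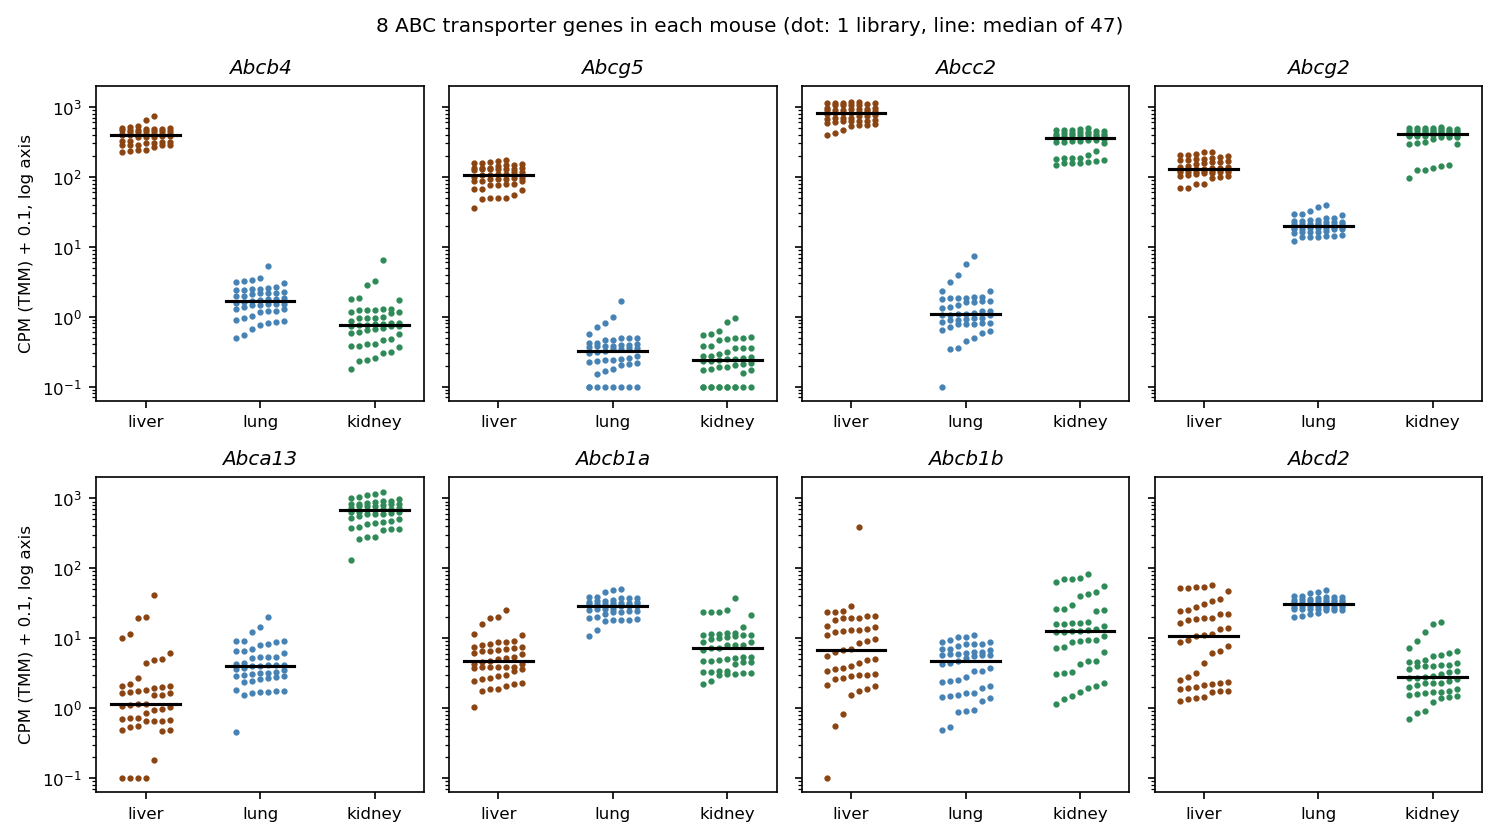
CPM scaled by TMM plus 0.1, on a log axis, of 8 ABC genes in the liver, lung and kidney of each of 47 mice (dots), with a line at the median. Abcb4 and Abcg5 lie high in liver alone, Abca13 in kidney alone, and Abcb1b, with 1 liver library at 383 CPM, and Abcd2 span wide ranges within a tissue.

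A list of 24 partners and regulators of ABC proteins was read beside them, of which 18 were tested. By TMM, 9 were higher in liver than in lung and 1 was higher in lung (23.9% and 31.0% of all genes tested). Against kidney 7 were higher in liver and 1 in kidney (15.6% and 20.8%). Between lung and kidney 3 were higher in lung and 5 in kidney (25.5% and 20.6%). Partners were not counted on total counts, where the shares of all genes higher in liver fell to 9.78% against lung and 8.09% against kidney. The largest differences were those of Apoa1, the acceptor of Abca1 lipid, at 10.98 ± 0.16 for liver over lung, and of Nr1h4, the bile acid receptor, at 6.44 ± 0.12 (log2 fold changes, q = 1.35e-81 and 5.92e-73). Next was Cftr, an ABC chloride channel named outside the Abc symbols, with a mean of 22.6 ± 11.1 CPM in lung against 0.53 ± 0.51 in liver (SD, n = 47; log2 fold change -5.56, q = 1.43e-59). Against kidney the 3 largest in liver were Apoa1 at 10.98, Apoe at 5.07 and Cftr at -4.37, and between lung and kidney Ppara at -3.92, Nr1h4 at -3.71 and Mmachc, the cobalamin partner of Abcd4, at -2.09, all log2 fold changes. Several of these are set against few counts. At most 3 counts were held by 38 of 47 lungs for Nr1h4, 40 lungs for Ppara, 32 livers for Cftr and 14 kidneys for Apoe.

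Promoter windows of 300 bases were held by RefSeq for 36 of the 48 genes, and only the 250 bases before the start were searched in each. Some genes have several, so these are 43 windows, and shares are over windows. A TATA box (TATAAA) stood in 5 of the 43, or 11.6%, against 12.4% of all 32851 windows, a CCAAT box (CCAAT) in 13, or 30.2% against 33.8%, and a GC box (GGGCGG) in 19, or 44.2% against 32.7%. The core of the antioxidant response element (TGACNNNGC) stood in 4, those of Abcc2, Abcc4 and Abcc10, or 9.30% against 10.2%. Palindromic sites of HNF1 and direct repeats of the nuclear receptor half-site spaced by 4 bases stood in none of the 43, and in 0.00913% and 0.0152% of all windows. Both strands were searched, and a match describes letters in those 250 bases.

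The second question was how much each gene varied over the 47 strains within a tissue. Genes entered where TMM-scaled TPM was above 1 in more than 50% of libraries and no single library split off from the rest, which left 31 ABC genes for liver, 33 for lung and 31 for kidney. The median standard deviation (SD) of log2 CPM in liver, lung and kidney was 0.41, 0.31 and 0.41, beside 0.38, 0.38 and 0.36 over all genes that entered. Above the median of all genes were 17 of 31 ABC genes in liver, 14 of 33 in lung and, for kidney, 17 of 31. No test was made, since members are not replicates. On total counts these medians were 0.81, 0.91 and 0.82, beside 0.80, 0.89 and 0.75 over all genes.

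In liver the SD was largest for Abcd2 at 1.83, Abcg3 at 1.20 and Abcg8 at 1.18, of which counting alone gives 0.34, 0.38 and 0.55. Abcd2 in liver ranged 30.3-fold from the 10th to the 90th percentile, from 1.61 to 48.8 CPM, and 98.6% of the genes that entered had a lower SD. Its sorted values had the widest step between the 18 lowest libraries, up to 4.34 CPM, and the other 29, from 6.14 CPM on. In lung the SD was largest for Abca17 at 1.49, Abcb1b at 1.22 and Abcc8 at 1.04. In kidney it was largest for Abcb1b at 1.70, Abcd2 at 1.04 and Abcb1a at 1.01, and kidney Abcb1b ranged 30.6-fold from 1.95 to 59.5 CPM between the same percentiles. Abcb1b thus varied widely in both lung and kidney, and it was left out in liver, where CC006 stood 13.4-fold above the next library.

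Steps in the sorted values were described for genes chosen after their values were seen. In kidney the widest ratio between neighbouring libraries, with at least 3 on each side, was 1.98 for Abcg2, ahead of Abcb1a (1.49), Abcb1b (1.46), Abcf2 (1.38), Abcd2 (1.38) and Abcc2 (1.34). The 6 lowest kidneys for Abcg2, those of CC020, CC025, CC029, CC035, CC043 and CC046, lay between 95.8 and 147 CPM and the other 41 between 291 and 514 CPM. For Abcc2 the 13 lowest kidneys lay between 147 and 230 CPM and the other 34 between 308 and 496 CPM, and CC046 was the 1 strain in both low sets. In liver the widest ratios were 1.68 for Abcg3, 1.461 for Abcg8, 1.456 for Abcc3 and 1.42 for Abcd2. Of these, Abcc3 had 4 livers, those of CC015, CC035, CC039 and CC046, between 40.9 and 78.1 CPM and the rest from 114 CPM on. At the other end, the SD was 0.18 for Abca1 in liver, 0.17 for Abcf1 in lung and 0.17 for Abcf3 in kidney, and Abca1 ran from 495 to 853 CPM over the 47 livers.

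**Figure D4:**
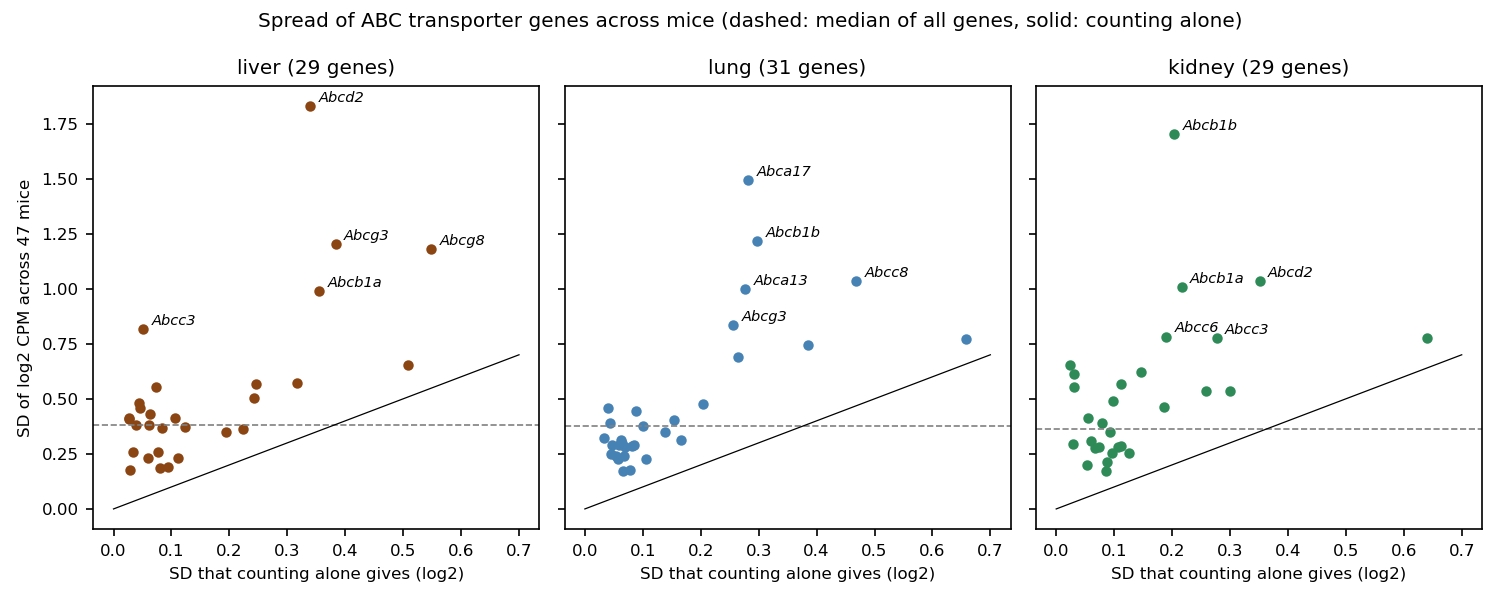
The SD of log2 CPM over 47 mice against the SD that counting alone gives, for 29 ABC genes (liver), 31 (lung) and 29 (kidney), with a solid line where the 2 are equal and a dashed line at the median SD of all genes. All points lie above the solid line, and Abcd2 in liver at 1.83, Abca17 in lung at 1.49 and Abcb1b in kidney at 1.70 lie highest.

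The third question was whether a gene that is high in one tissue of a mouse is high in another. Ranks turned to normal scores were correlated over the 47 mice, with 100000 permutations of strains per gene and q over all genes that entered in both tissues. Between liver and lung, 6 of 26 ABC genes passed (12.7% of 7951 genes did), between liver and kidney 8 of 26 (22.7% of 7975), and between lung and kidney 6 of 28 (16.7% of 9513). Abcb9 in lung and kidney had r = 0.53 (permutation p = 0.00011, q = 0.0032) and rho = 0.54 (p = 8e-05), and r = 0.60 without the 2 strains farthest from the lung median. Abcb1b in lung and kidney had r = 0.50 (permutation p = 0.0003, q = 0.00631) and rho = 0.50 (p = 0.00035), and r = 0.57 without such strains. Abca6 followed with r = 0.45 (permutation p = 0.00155, q = 0.0200), rho = 0.46 (p = 0.00128) and r = 0.38 without them. Abcd3 passed in all 3 tissue pairs. It had r = 0.39 in liver and lung (permutation p = 0.00687, q = 0.0675, rho = 0.34, p = 0.0210, and 0.41 without 2 strains) and r = 0.40 in lung and kidney (permutation p = 0.00516, q = 0.0447, rho = 0.45, p = 0.00141, and 0.51 without 2 strains).

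Among those that passed in liver and kidney were Abcd3 (r = 0.45, permutation p = 0.00132, q = 0.0143, rho = 0.36, p = 0.0133) and Abcb10 (r = 0.44, permutation p = 0.00194, q = 0.0188, rho = 0.42, p = 0.00399). Without the 2 farthest strains these were r = 0.40 and 0.37. In liver and lung the largest were Abcf3 (r = 0.44, permutation p = 0.00204, q = 0.0295, rho = 0.40, p = 0.00582), Abca8a (r = 0.43, permutation p = 0.00265, q = 0.0358, rho = 0.43, p = 0.00298) and Abcg2 (r = -0.42, permutation p = 0.00357, q = 0.0441, rho = -0.43, p = 0.00283). Without the 2 farthest strains these were r = 0.45, 0.37 and -0.41. Abcg2 thus ran in opposite directions in liver and lung, and so did Abca8a for the pair liver with kidney (r = -0.38, permutation p = 0.00793, q = 0.0495, rho = -0.39, p = 0.00705, and -0.35 without 2 strains), whereas negative relations were 27 of the 1009 and 33 of the 1809 that passed over all genes. On TPM without TMM, 0 ABC genes passed between liver and lung, 3 between liver and kidney and 2 between lung and kidney, beside 1.38%, 14.4% and 3.68% of all genes, and Abcf3 had r = -0.046 in liver and lung.

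Markers of other cell types moved with a few genes. With cardiac muscle markers in lung, 3 of 33 ABC genes passed (4.26% of 11994 genes did), namely Abcc8 (r = 0.66, permutation p = 1e-05, the smallest the permutations can give, q = 0.00167, rho = 0.68, p = 1e-05), Abcb8 (r = 0.51, permutation p = 0.00028, q = 0.0199, rho = 0.48, p = 0.00073) and Abcg2 (r = -0.45, permutation p = 0.00119, q = 0.0490, rho = -0.41, p = 0.00391). Without the 2 lungs farthest in the marker score these were r = 0.67, 0.53 and -0.36. On TPM without TMM 1 of the 33 passed (1.08% of all genes). Of that list Tnnt2 had a median of 0 and 4 of the 6 markers reached a median of 1 TPM in lung. With adipocyte markers in kidney, 1 of 31 passed (0.545% of 10451), which was Abcd2 (r = 0.78, permutation p = 1e-05, the smallest the permutations can give, q = 0.00402, rho = 0.77, p = 1e-05, and 0.77 without 2 kidneys), while 1 of the 5 markers reached a median of 1 TPM and Plin1, Cfd and Cidec had medians of 0. With macrophage markers in lung, 0 of 33 passed by Pearson's r (1.95% of 11994), with 1 gene, Abcc5, at an unadjusted permutation p under 0.05 by r and 2 by rho. The part of these cell types in the values of Abcc8, Abcb8, Abcg2 and Abcd2 was not tested.

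**Figure D5:**
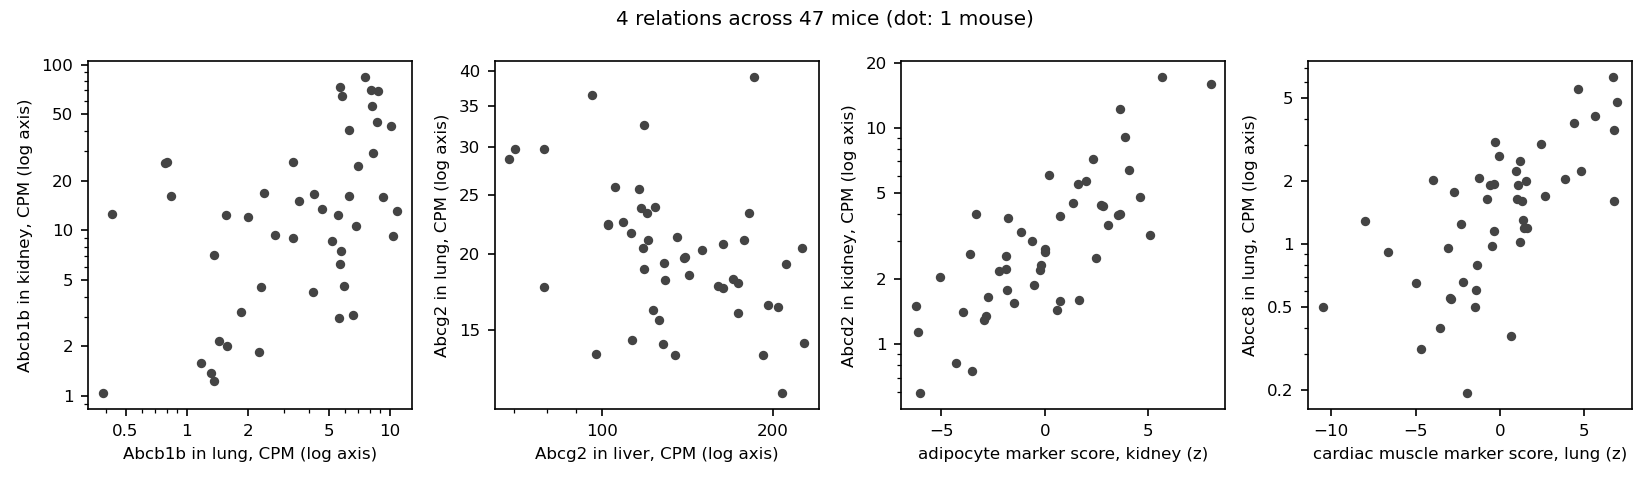
Values of 47 mice (dots) for Abcb1b in lung and kidney, Abcg2 in liver and lung, Abcd2 in kidney against the adipocyte marker score (sum of z-scores) and Abcc8 in lung against the cardiac muscle marker score, with CPM on log axes. Abcb1b, Abcd2 and Abcc8 rise from left to right (r = 0.50, 0.78 and 0.66) and Abcg2 falls (r = -0.42).

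Close pairs were compared last. Abcg8 ranked 3 of 8622 genes in its correlation with Abcg5 in liver (r = 0.51, permutation p = 0.00023, rho = 0.49, p = 0.00069, and 0.47 without 2 strains), behind Decr2 and Bco2, but its q over all genes was 0.496. No ABC gene passed against Abcg5 (0.00% of all genes did), with 2 of 30 at an unadjusted permutation p under 0.05 by r and 2 by rho. Abcb1b ranked 1903 of 10450 against Abcb1a in kidney (r = 0.12, permutation p = 0.409, q = 0.999, rho = 0.14, p = 0.35, and 0.087 without 2 strains), and 0 of 30 ABC genes passed (0.0191% of all genes), with 1 at an unadjusted permutation p under 0.05 by either measure. Abca8b ranked 174 of 8622 against Abca8a in liver (r = 0.36, permutation p = 0.0120, q = 0.401, rho = 0.42, p = 0.00362, and 0.42 without 2 strains), while Abca6 ranked 10 (r = 0.50, permutation p = 0.00039, q = 0.208, rho = 0.48, p = 0.00081, and 0.51 without 2 strains). Again 0 of 30 passed (0.00% of all genes), with 5 at an unadjusted permutation p under 0.05 by either measure. On TPM without TMM, 26 of 30 ABC genes passed against Abcg5 and 27 of 30 against Abca8a, beside 82.5% and 86.8% of all genes, so these counts are no result about ABC genes. On that scale Abcg8 ranked 95 against Abcg5 (r = 0.64, permutation p = 1e-05, q = 0.000244), and on log2(TPM + 1) it ranked 13 (r = 0.46, permutation p = 0.00105, q = 0.515).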

How the data were processed

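Expression was measured by ribosome-depleted total RNA sequencing (single-end, 50 bases) in 141 libraries. The authors aligned reads with STAR 2.5.3a to strain-specific pseudo-genomes on mm9 and quantified uniquely aligned reads with RSEM. Each file deposited by the authors gives an expected count, TPM and FPKM per gene, and the deposited FPKM values were not used here. Expected counts were rounded (25 were not whole, at a tolerance of 0.001).

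Tissues were compared with limma 3.58.1 (voom) and edgeR 4.0.16 TMM factors in R 4.3.3, with strain as a block because the 3 tissues come from the same mouse. Deviations of the same mouse had a median correlation of 0.166, 0.173 and 0.211 in the 3 tissue pairs, against about 0 between strains (-0.00482, -0.00604 and -0.00588). For relations across strains, TMM-scaled TPM above 1 in more than 50% of libraries was required, genes for which K-means with 2 clusters put 1 library alone were dropped, and rank-based normal scores were permuted (Python 3.11.15, scipy 1.17.1). Scripts were tested on simulated data. Alternatives were edgeR's quasi-likelihood test, DESeq2 1.42.0, other scalings, filters and pseudocounts, no block, and leaving out strains.

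Genes and lists (ABC genes, partners, and markers of hepatocytes, alveolar and airway epithelium, tubule, macrophages, cardiac and smooth muscle, endothelium, adipocytes, erythroid cells and pancreas) were chosen with earlier results of these data known. Full statistics are given for the 3 largest differences per tissue pair and direction, the 3 largest correlations, the 3 largest SDs per tissue and 3 close pairs. Some genes are not reported here and are not drawn. The labels give no batch. The authors fitted sequencing batch in their own models, so batches exist, but which library belongs to which is not labelled. No model here includes batch, and its part in the spread, steps and correlations over mice was not tested. P-values of the tissue model measure the spread over mice of differences between tissues of the same mouse. Permutation p-values measure association over single mice. The SD that counting alone gives covers counting error only.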

Additional observations from a re-analysis of the deposited data

How the results depend on the processing

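Of 703 values recomputed under alternatives, 641 kept their direction and side of the threshold or moved little, 136 of 159 counts and medians and 505 of 544 single-gene values. Without the replicate block the counts of ABC genes were the same, 17 and 12, 14 and 7, and 15 and 11. At q alone, 15 were higher in kidney than in liver and 17 higher in kidney than in lung. Higher in liver than in lung, higher in liver than in kidney and higher in kidney than in liver were 8, 9 and 15 on total counts (9.78%, 8.09% and 47.8% of all genes). They were 9, 9 and 14 on total counts without Rn45s and Lars2, 8, 8 and 14 on log2(TPM + 1), and 8, 9 and 15 on log2(TPM + 0.1). Over all genes, the log2 fold change of liver over lung moved at the median by -1.19, -1.36 and -1.47 on these last scales. Shares over all genes were not taken there or at q alone, so those counts are no result about ABC genes. For liver over lung, the log2 fold change of Abcb1b was -0.35 on total counts, -0.31 on log2(TPM + 1) and -0.52 on log2(TPM + 0.1), and that of Abca8a was -0.35, -0.46 and -0.46, and -0.17 without Rn45s and Lars2. Without CC006 Abcb1b was 0.95. Leaving out Rn45s and Lars2, and CC006, was chosen after seeing the data. On TPM without TMM, 0, 3 and 2 ABC genes correlated between tissues (1.38%, 14.4% and 3.68% of all genes), 1 with cardiac markers (1.08%), 26 with Abcg5 (82.5%) and 27 with Abca8a (86.8%), and r of Abcf3 in liver and lung was -0.0464. On total counts the median SDs in liver, lung and kidney came to 0.81, 0.91 and 0.82, beside 0.80, 0.89 and 0.75 over all genes. The cause of these changes was not tested. Depth limits genes at or under 3 counts, such as Abcg5 outside liver, Abca17 in liver and kidney, and Abca4 in liver.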

Other observations

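Both values here were chosen after they were seen. The liver of CC006 had 383 CPM of Abcb1b (2047 counts, 170 TPM), 13.4-fold above the next liver, that of CC013 at 28.7 CPM, while 0 of the 32 other ABC genes with a liver median of at least 1 TPM were highest or lowest in that library. Of the 15 with a lower median, Abcc8 (0.37 CPM) and Abcg4 (1.87 CPM, 10 counts) were highest there. The liver of CC041 had 31.0 CPM of Abca12 (159 counts, 7.06 TPM) against 1.70 CPM in the next liver, 0 of the 33 other ABC genes with a liver median of at least 1 TPM were highest or lowest there, and 0 of the 14 with a lower median were highest there. Each is 1 mouse, with no replicate of the strain.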
